A study of Mus musculus with 24 samples.

Results

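A set of 46 genes of DNA replication and S phase was followed in RNA-sequencing libraries of mouse neural stem and progenitor cells (NSPCs) that carried 2, 1 or no intact copies of Kat6a, the gene of a histone lysine acetyltransferase. The members were found by gene symbol among the 26411 genes of the count tables, and all 46 were present and passed the low-count filter in every comparison. They fall into 10 role groups, which are origin licensing (Orc1, Orc6, Cdc6, Cdt1), the MCM helicase (Mcm2 to Mcm7), helicase activation (Gins1 to Gins4, Cdc45, Mcm10), polymerases and primase (Pola1, Pola2, Prim1, Prim2, Pold1, Pole, Pole2), the clamp and its loaders (Pcna, Rfc2 to Rfc5, Dscc1), Okazaki fragment joining (Fen1, Lig1), single-stranded DNA binding and fork protection (Rpa1, Rpa2, Tipin, Clspn), nucleotide supply (Rrm1, Rrm2, Tyms), chromatin replication (Uhrf1, Chaf1a, Chaf1b, Slbp) and S phase entry and degradation (Ccne1, Ccne2, E2f1, Dtl). The genes lie on 16 chromosomes.

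Before a cell copies its genome, the origin recognition complex with CDC6 and CDT1 loads the MCM helicase onto DNA, and CDC45 and the GINS complex then switch the helicase on. Primase starts the new strands, polymerases held by the PCNA clamp extend them along the opened strands, and ribonucleotide reductase supplies the deoxynucleotides. Transcription of many of these genes rises at the border of G1 and S phase under E2F transcription factors, so their mRNA is plentiful in cycling progenitors and falls as cells leave the cycle.

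NSPCs were isolated from the dorsal telencephalon, which forms the cortex, of single E12.5 embryos from crosses of heterozygous mice on a C57BL/6 background. Kat6a+/+ cells were wild type, Kat6a+/- cells carried 1 null allele and Kat6a-/- cells carried 2, the null allele being a deletion of exons that brings an early stop into the sequence of the catalytic domain. Cells grown as neurospheres and frozen at an early passage were cultured for 3 days either in growth factor medium with FGF2 and EGF (proliferating) or attached to poly-L-ornithine and laminin with low serum (differentiating). Each of the 6 combinations had 4 libraries of stranded mRNA sequencing, made from 200 ng of RNA. The RNA extraction kit differed between proliferating and differentiating cells, so kit and condition cannot be told apart. The 3 genotype comparisons within a condition share their libraries, and the libraries of 6 embryos were labelled as present in both conditions. Kat6a+/+ replicate 2 has the same embryo number in both conditions but litter labels that differ in the order of their digits, and these were kept as separate litters.

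Total counts ranged from 7826660 to 40838203 per library, and levels are given below in CPM, the count scaled to library size by TMM factors common to all 24 libraries. The mean level of Kat6a itself in proliferating libraries was 395 ± 16.7 CPM with both alleles intact, 353 ± 16.5 CPM in heterozygous and 355 ± 24.6 CPM in null libraries (SD, n = 4), and counts over the whole gene do not test a deletion of some of its exons. As a check of the labelled cell type, the summed level of 8 neural stem and progenitor markers was 7187 to 8071 CPM in proliferating Kat6a+/+ libraries. The microglial markers C1qa and C1qb and the globin genes Hbb-bt, Hbb-bs, Hba-a2 and Hbb-y had no count in any of the 24 libraries. The other microglial and erythroid markers of these lists (Aif1, Cx3cr1, Csf1r, Ptprc, Hba-a1 and Alas2) had counts in some or all libraries. Their highest level in any library was 1.01 CPM (Alas2). In both conditions 3 of 4 wild type libraries had Y-linked reads, against 1 of 4 of each mutant group, so sex and genotype are partly confounded. For 1 of the 6 embryos labelled in both conditions, the source of replicate 1 of Kat6a+/+, Y-linked reads were present in the differentiating library and absent from the proliferating one. Proliferating Kat6a-/- replicate 4 stood apart from its group, with a summed level of the 46 members of 3083 CPM against 4635 to 5205 CPM in the other 3. In it 45 of 46 members were below the lowest Kat6a+/+ library, against 26, 40 and 32 in replicates 1 to 3. Proliferating Kat6a+/+ replicate 2 itself had 32 members below the lowest of the other wild type libraries. This count was not made over all genes. Differentiating Kat6a-/- replicate 4, labelled as the same embryo as proliferating Kat6a-/- replicate 4, had the highest summed level of its group at 878 CPM against 707 to 764 CPM. In the differentiating fit, quality weights gave Kat6a-/- replicate 3 a share of 69.0% of its group's weight.

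The promoters of the members were searched for 4 kinds of short letter patterns. RefSeq promoters of GRCm38.p6, each running from 250 bases before to 50 after a transcription start, were available for 36 of the 46 members (41 promoters, of 32851 in all). E2F letters (TTTCCCGC, TTTGGCGC or TTTCGCGC on either strand) occurred in 39.0% of the member promoters, those of 16 members, and in 1.84% of all promoters of the same length, and with only the bases before the start they occurred in 24.4% against 1.53%. The letters CCAAT occurred in 61.0% against 37.4%, and the GC box letters GGGCGG in 70.7% against 35.7%. The letters TTTGAA or TTCGAA, of the cell cycle homology region found in many mitotic promoters, occurred in 14.6% of member promoters and 19.2% of all. Of 22 E2F matches in member promoters, 4 overlapped another E2F match and 1 overlapped CCAAT. A match of letters is a description of the sequence and not a binding site. The first set below shows the E2F letters in capitals in members of 3 role groups, each window lying upstream of the start.
Mcm5, chr8:75109326-75109397, plus strand: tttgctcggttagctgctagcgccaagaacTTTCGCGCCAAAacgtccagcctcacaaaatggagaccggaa
Mcm6, chr1:128359715-128359845, minus strand: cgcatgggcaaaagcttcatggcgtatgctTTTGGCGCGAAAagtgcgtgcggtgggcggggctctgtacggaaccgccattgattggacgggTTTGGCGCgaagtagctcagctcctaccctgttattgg
Gins3, chr8:95633488-95633555, plus strand: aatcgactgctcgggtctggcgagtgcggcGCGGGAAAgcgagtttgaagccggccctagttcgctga
Rfc3, chr5:151651209-151651248, minus strand: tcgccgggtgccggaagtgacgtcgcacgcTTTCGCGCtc

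Members without E2F letters in this window included the genes of ribonucleotide reductase, the clamp and an origin recognition subunit, and their CCAAT letters (ATTGG where they lie on the other strand) are shown in capitals because these genes span the largest and nearly the smallest fall described below.
Rrm2, chr12:24708174-24708238, plus strand: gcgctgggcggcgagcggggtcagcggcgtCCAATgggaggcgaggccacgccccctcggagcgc
Pcna, chr2:132253233-132253297, minus strand: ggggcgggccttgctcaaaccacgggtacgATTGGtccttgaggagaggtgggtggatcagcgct
Orc6, chr8:85299548-85299612, plus strand: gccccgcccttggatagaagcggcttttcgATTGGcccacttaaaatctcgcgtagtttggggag

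In wild type NSPCs, every member was lower in the differentiating than in the proliferating condition. All 46 members were called lower (FDR under 0.05, limma with Benjamini-Hochberg adjustment over all genes tested), where 36.2% of all genes tested were called lower. The median log2 fold-change was -1.81 over the members and 0.02 over all genes. Mean levels in differentiating Kat6a+/+ libraries were between 14.3% (Uhrf1) and 78.5% (Rpa1) of those in proliferating Kat6a+/+ libraries, with a median of 29.5%. Uhrf1, which reads hemimethylated DNA behind the fork and recruits the maintenance methyltransferase, went from 379 ± 21.9 to 54.1 ± 12.2 CPM (SD, n = 4). Rpa1, the large subunit of the single-stranded DNA binding protein RPA, went from 180 ± 13.5 to 142 ± 12.2 CPM, a log2 fold-change of -0.35 (SE 0.09, FDR = 0.00135). The remaining 44 members lay between these, and all 10 role groups were lower as a whole. In bulk libraries, fewer cells in S phase and less of these mRNAs per cell cannot be told apart.

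**Figure D1:**
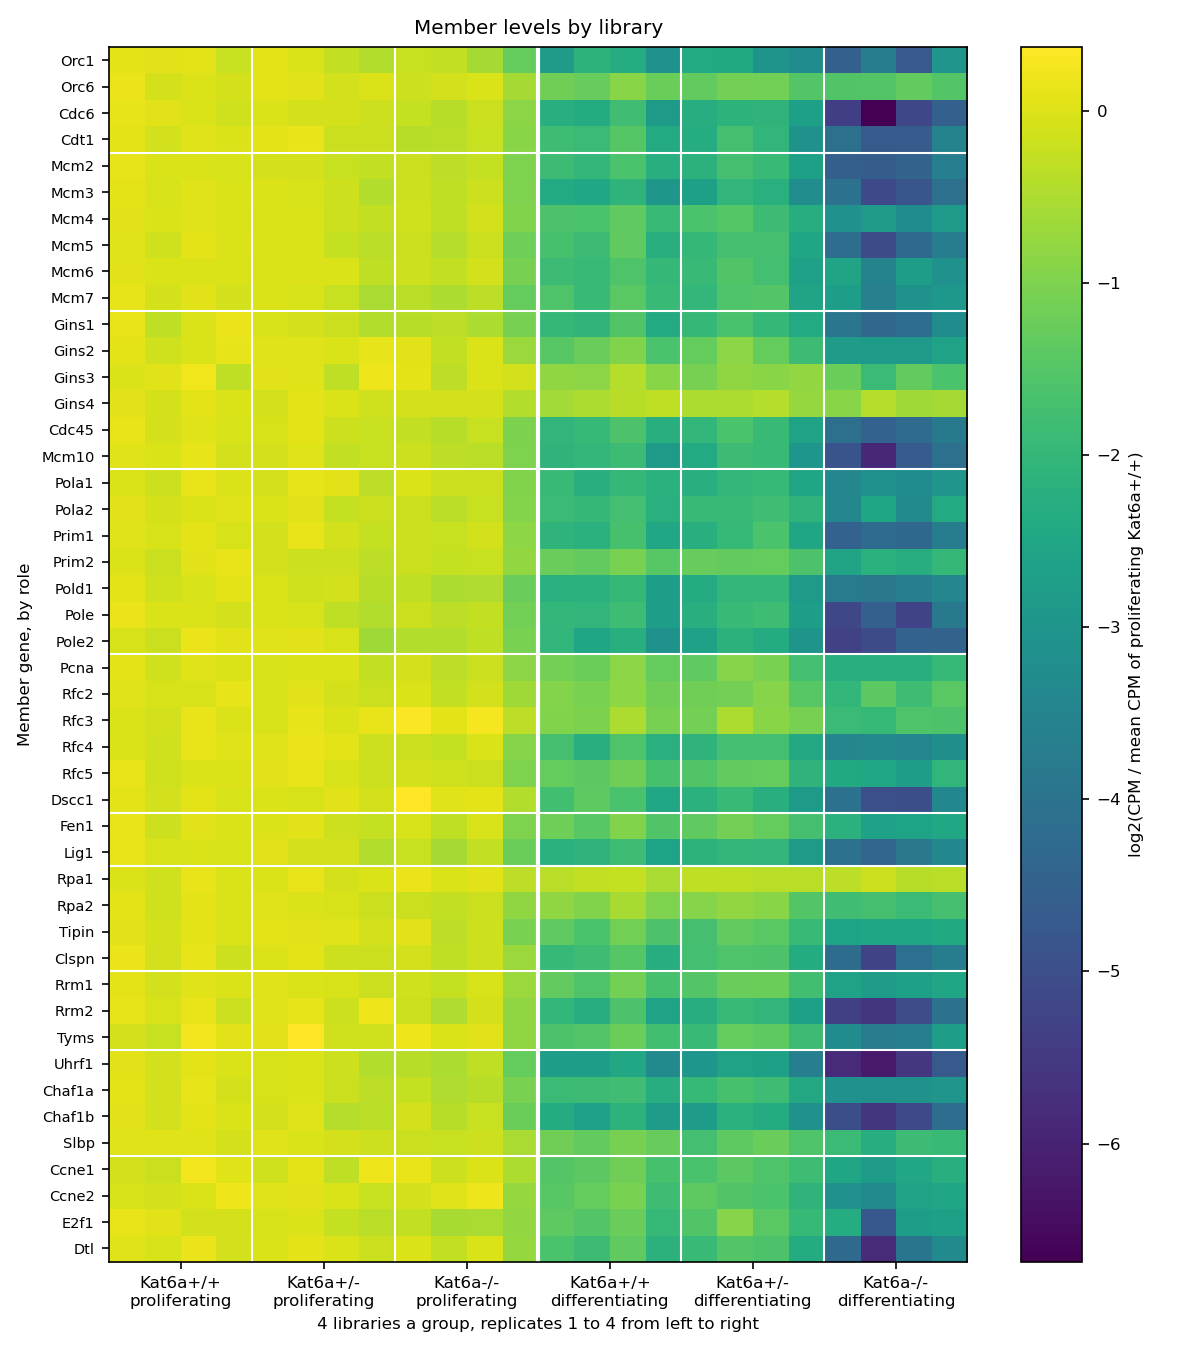
Level of each of the 46 members (rows, by role group) in each of the 24 libraries (columns), as the log2 ratio to the mean of proliferating Kat6a+/+ libraries. The colours go from yellow in the proliferating libraries on the left to green and blue in the differentiating ones on the right, darkest in Kat6a-/-, and the last proliferating Kat6a-/- column (replicate 4) is greener than its 3 neighbours.

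In differentiating Kat6a-/- cells the replication genes were lower still. Of the 46 members, 44 were called lower in differentiating Kat6a-/- than Kat6a+/+ NSPCs and none higher, where 27.7% of all 13339 genes tested were called lower. The median log2 fold-change was -1.49, against -0.02 over all genes, 39 members were below -1 and 17 below -2. Mean levels in Kat6a-/- libraries had a median of 37.2% of Kat6a+/+, from 12.6% (Cdc6) to 103% (Rpa1). For 43 members all 4 Kat6a-/- libraries lay below all 4 Kat6a+/+ libraries, where 14.7% of all genes did so. The summed level of the members was 707 to 878 CPM in Kat6a-/- against 1479 to 2210 CPM in Kat6a+/+ libraries, and the proliferation marker Mki67 was 8.87 to 49.0 CPM against 145 to 269 CPM. The part of the lower Mki67 in the change of the members was not tested.

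**Figure D2:**
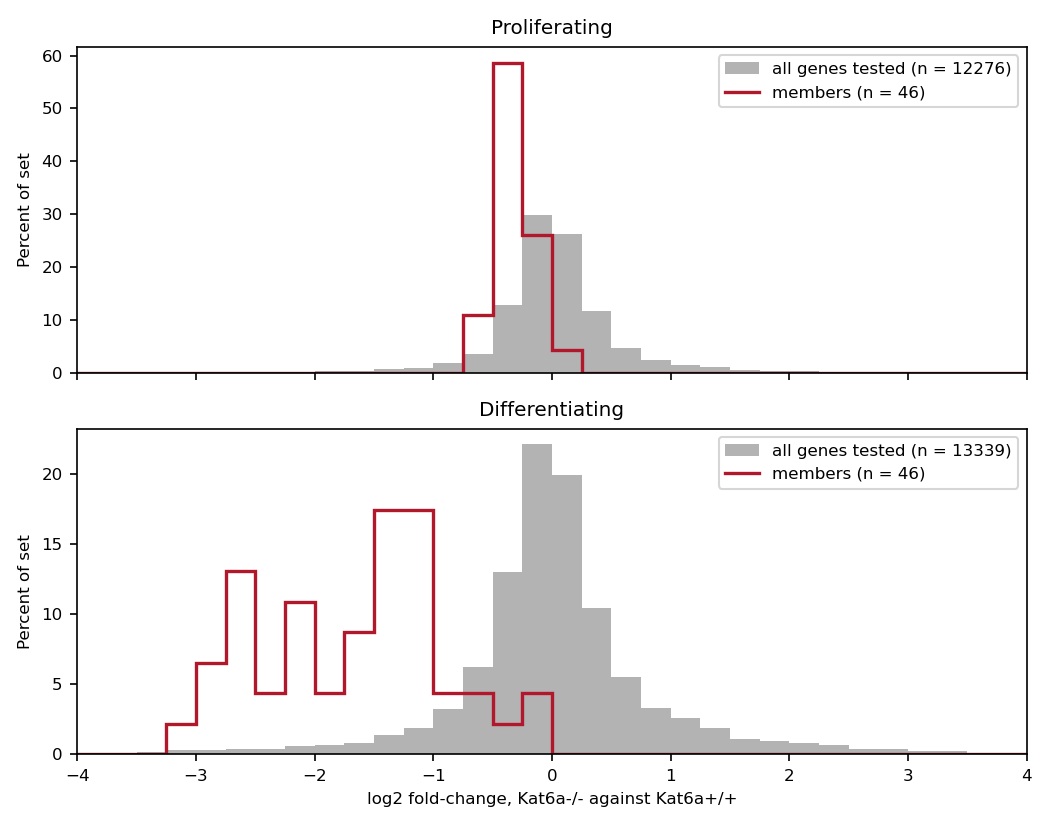
Distribution of log2 fold-changes, Kat6a-/- against Kat6a+/+, in steps of 0.25 from -4 to 4, for the 46 members (red line) and all genes tested (grey; 12276 proliferating, 13339 differentiating), as percent of each set. The members sit just left of the grey peak in proliferating cells (median -0.32) and spread far to its left in differentiating cells (median -1.49).

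By the median log2 fold-change, origin licensing was among the role groups with the largest falls, with all 4 genes called and a median of -2.17. By mean summed level it went from 61.8 to 29.7 CPM. That was a smaller relative fall than in the MCM helicase (453 to 145 CPM) or nucleotide supply (292 to 94.9 CPM). Cdc6, the ATPase that brings the helicase to origins (chr11:98798507-98814766, plus strand, GRCm39 like all gene positions given here), had 11.6, 10.7, 15.8 and 7.59 CPM in Kat6a+/+ against 1.31, 0.531, 1.51 and 2.39 CPM in Kat6a-/- differentiating libraries. The groups did not overlap, and the log2 fold-change was -2.94 (SE 0.23, FDR = 2.84e-06). Cdt1, which works with CDC6 in loading, fell from 17.2 ± 4.10 to 3.50 ± 1.38 CPM (log2 fold-change -2.61, SE 0.24). Orc1, the large subunit of the origin recognition complex, was a low gene here at 2.92, 4.64, 4.10 and 2.43 CPM in Kat6a+/+ against 0.894, 1.54, 0.783 and 2.52 CPM in Kat6a-/-. Its groups overlapped through replicate 4 of both genotypes, and its log2 fold-change was -1.73 (SE 0.28, FDR = 0.000288). Orc6, the smallest subunit of the same complex and the highest of the group per kilobase, had 29.0, 26.7, 35.0 and 28.0 CPM against 22.4, 22.7, 25.9 and 22.5 CPM. The ranges of Orc6 were separated by less than 1 CPM, and its log2 fold-change of -0.30 (SE 0.10, FDR = 0.0246) was the third smallest in size of all members, after Rpa1 and Gins4. Orc6 was called in 9 of 17 alternatives, and its call was lost without Kat6a+/+ replicate 3 (FDR = 0.116) and without Kat6a-/- replicate 1 (0.318) or 3 (0.2503).

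All 6 genes of the MCM2-7 helicase ring were called lower, with a median of -1.92. Mcm7 (chr5:138162844-138170684, minus strand), the highest per kilobase, had 88.6, 70.5, 97.7 and 70.1 CPM in Kat6a+/+ against 39.3, 21.6, 30.9 and 34.4 CPM in Kat6a-/-. The groups were well apart, with a log2 fold-change of -1.43 (SE 0.16, FDR = 2.37e-05). The ring holds its subunits in equal number, and their mRNAs had different fold-changes. Mcm5 and Mcm2 had log2 fold-changes of -2.55 (SE 0.19) and -2.52 (SE 0.17), Mcm3 -2.23 (SE 0.22), Mcm4 -1.62 (SE 0.13) and Mcm6 -1.01 (SE 0.16). These differences between subunits were not tested against each other.

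Among the genes that activate the helicase, 5 of 6 were called. Mcm10, Cdc45 and Gins1 had log2 fold-changes of -2.54 (SE 0.23), -2.22 (SE 0.17) and -2.07 (SE 0.20). Gins2, the highest of the group per kilobase, had 14.4, 16.5, 20.0 and 12.7 CPM in Kat6a+/+ against 5.71, 5.52, 5.42 and 6.46 CPM in Kat6a-/- (log2 fold-change -1.51, SE 0.16, FDR = 1.79e-05). The 4 null libraries of Gins2 lay close together, below the lowest wild type library. Gins4, whose product sits in the same GINS complex of 4 subunits, was the exception. It had 22.1, 23.9, 25.6 and 27.3 CPM in Kat6a+/+ against 18.2, 25.4, 21.5 and 22.6 CPM in Kat6a-/-, ranges that overlapped. Its log2 fold-change was -0.19 (95% interval by the normal distribution -0.37 to -0.01, FDR = 0.0948), and its unadjusted limma p was not under 0.05. With library totals in place of TMM the log2 fold-change was -0.34 (FDR = 0.00554). Gins3 lay between, at -0.66 (SE 0.14).

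All 7 polymerase and primase genes were called lower, with a median of -1.47. Pole, which encodes the catalytic subunit of the leading strand polymerase epsilon, had 37.0, 36.0, 41.9 and 22.4 CPM in Kat6a+/+ against 4.13, 6.48, 3.86 and 10.5 CPM in Kat6a-/-. With a log2 fold-change of -2.99 (SE 0.24, FDR = 3.02e-06) it was second only to Rrm2 in the size of its change, and its accessory subunit gene Pole2 had -2.24 (SE 0.24). Pold1, the catalytic subunit of the lagging strand polymerase delta (chr7:44182168-44198349, minus strand), had 38.9, 39.4, 45.4 and 26.3 CPM against 12.7, 12.2, 14.1 and 16.6 CPM (log2 fold-change -1.47, SE 0.16). The primase subunit genes Prim1 and Prim2 had -2.22 (SE 0.19) and -1.08 (SE 0.11), and the polymerase alpha genes Pola1 and Pola2 had -1.24 (SE 0.11) and -1.32 (SE 0.15).

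All 8 genes of the clamp, its loaders and the joining of Okazaki fragments were called lower, with log2 fold-changes from -2.59 (Dscc1) to -0.81 (Rfc3). Pcna, the sliding clamp gene (chr2:132091082-132095234, minus strand) and a common marker of cycling cells, had 102, 93.5, 122 and 89.4 CPM in Kat6a+/+ against 45.5, 45.5, 46.3 and 56.2 CPM in Kat6a-/-. For Pcna, 3 null libraries were close together and replicate 4 was higher, all of them below the wild type ones, with a log2 fold-change of -1.16 (SE 0.12, FDR = 1.69e-05). The loader subunit genes ranged from -0.81 (Rfc3, SE 0.15) and -0.85 (Rfc2, SE 0.11) to -1.62 (Rfc4, SE 0.17). Dscc1, which belongs to an alternative loader linked to cohesion, was the member with the lowest mean in differentiating Kat6a-/- libraries, at 3.36, 4.42, 3.62 and 2.10 CPM against 0.688, 0.372, 0.362 and 1.10 CPM (log2 fold-change -2.59, SE 0.27, FDR = 1.27e-05). Lig1, the ligase that seals the lagging strand, went from 51.4, 54.3, 65.6 and 38.8 CPM to 13.9, 11.3, 15.7 and 22.2 CPM (log2 fold-change -1.78, SE 0.17), and the flap nuclease gene Fen1 had -1.32 (SE 0.14).

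In differentiating cells Rpa1 was the member with the smallest difference from wild type. Its differentiating levels (chr11:75188992-75239455, minus strand) were 142, 148, 152 and 125 CPM in Kat6a+/+ against 143, 162, 138 and 141 CPM in Kat6a-/-. The groups overlapped, and the log2 fold-change was -0.03 with a 95% interval of -0.15 to 0.09 (FDR = 0.719), which turned positive in 5 of the alternative fits and with some single libraries left out, and was -0.18 (FDR = 0.0214) with library totals. Rpa2, the partner subunit in the same RPA complex, fell from 46.2 ± 6.66 to 23.9 ± 1.37 CPM (log2 fold-change -1.07, SE 0.12). The checkpoint mediator gene Clspn had -2.27 (SE 0.19) and the fork protection gene Tipin -1.18 (SE 0.12).

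The largest fold-change of all members was in nucleotide supply, where all 3 genes were called. Rrm2, the small subunit of ribonucleotide reductase that is made in S phase (chr12:24757811-24764145, plus strand), had 97.0, 81.4, 131 and 63.7 CPM in differentiating Kat6a+/+ and 9.77, 8.12, 12.1 and 24.2 CPM in Kat6a-/-. Its log2 fold-change was -3.01 (SE 0.23, FDR = 2.59e-06). The large subunit gene Rrm1 fell less, with -1.33 (SE 0.12), and the thymidylate synthase gene Tyms had -1.98 (SE 0.18). In chromatin replication, Uhrf1 (chr17:56610275-56630489, plus strand) had 55.5, 55.5, 67.5 and 37.9 CPM against 6.54, 5.26, 8.01 and 14.5 CPM (log2 fold-change -2.78, SE 0.21). The subunit genes of the CAF-1 histone chaperone had -2.61 (Chaf1b, SE 0.20) and -1.18 (Chaf1a, SE 0.12), and Slbp, which binds the stem-loop of histone mRNAs, -0.72 (SE 0.10). Of the genes of S phase entry, Ccne1, a cyclin that activates CDK2, had 13.4, 14.6, 17.4 and 12.1 CPM against 6.61, 5.63, 6.93 and 8.07 CPM (log2 fold-change -1.06, SE 0.13), and its relative Ccne2 had -1.35 (SE 0.19). The transcription factor gene E2f1 had -1.33 (SE 0.22), and Dtl, which targets CDT1 for destruction in S phase, -2.35 (SE 0.23).

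**Figure D3:**
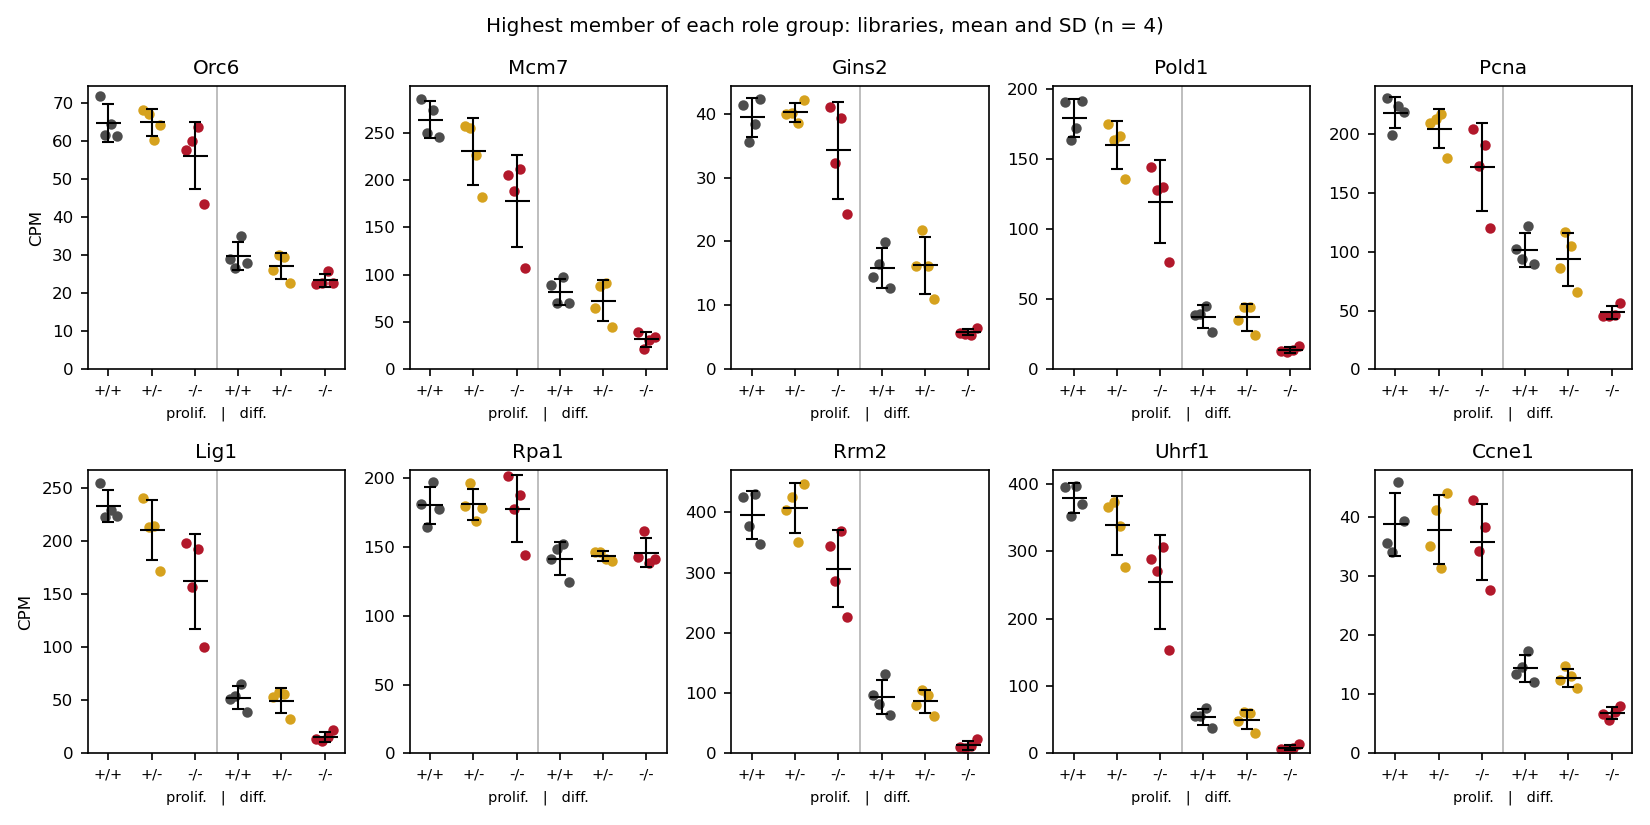
CPM of the member with the highest mean CPM per kilobase in each of the 10 role groups, 1 point per library, with mean and SD (n = 4) for the 3 genotypes in each condition, on axes that start at 0. The Kat6a-/- points lie below the Kat6a+/+ points in differentiating cells in every panel but that of Rpa1.

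The count of called members changed little when single differentiating libraries were left out. Between 38 (without Kat6a-/- replicate 3) and 45 members were called, while the share of all genes called lower went from 27.7% to 4.74% without that replicate and to 5.77% without Kat6a-/- replicate 1, where 39 members were called. With library totals in place of TMM the median over all genes moved by -0.15 and the share of calls that were lower went from 50.9% to 68.3%. All 46 members were then called lower, where 42.5% of all genes were. Within the litter that gave 2 Kat6a-/- and 1 Kat6a+/+ differentiating libraries the median log2 ratio over the members was -1.81, and within the litter that gave 1 of each it was -1.20. In both litters 45 of 46 members were below 0, a count that was not made over all genes.

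In proliferating cells the members were lower in Kat6a-/- than Kat6a+/+ by smaller amounts. Of the 46 members, 20 were called lower and none higher, where 13.8% of the 12276 genes tested were called lower, and the median log2 fold-change was -0.32 against -0.005 over all genes. Mean levels in Kat6a-/- libraries had a median of 79.0% of Kat6a+/+, from 66.8% (Pold1) to 108% (Rfc3). For 22 members all 4 Kat6a-/- libraries lay below all 4 Kat6a+/+ libraries, where 17.6% of all genes did so. The called members included 3 of 4 licensing genes (Orc1, Cdc6, Cdt1), 3 of 6 MCM genes (Mcm2, Mcm5, Mcm7), 3 of 6 helicase activators (Gins1, Cdc45, Mcm10), 4 of 7 polymerase and primase genes (Pola2, Prim2, Pold1, Pole2) and 3 of 4 chromatin replication genes (Uhrf1, Chaf1a, Slbp). Pcna, Lig1, Rpa2 and E2f1 were the only called members of their role groups, and no gene of nucleotide supply was called.

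The result in proliferating cells rested in part on replicate 4 of Kat6a-/-. Without it 12 members were called, of which 11 were lower and Rfc3 was higher, where 9.18% of all genes were called lower, and the median log2 fold-change was -0.17. Leaving out a Kat6a+/+ library also moved the count, to 8 (replicate 1), 13 (replicate 2), 11 (replicate 3) and 13 (replicate 4), all of them lower, where 8.21%, 9.64%, 13.1% and 9.71% of all genes were called lower. Without Kat6a-/- replicate 3 it was 30 (11.8% of all genes lower), and without the other 2 null libraries it was 25 (replicate 1, 10.5%) and 16 (replicate 2, 12.3%). A term for the presence of Y-linked reads left 4 of 46 members called, where 9.26% of all genes were called lower, so that the members were called no more often than all genes. Litter as a fixed term left 7 members, where 7.13% of all genes were called lower. Neither litter that gave both genotypes holds Kat6a-/- replicate 4. Its own litter gave no Kat6a+/+ library, so litter and genotype cannot be told apart for it. Kat6a+/- replicate 4, of the same litter, had the lowest summed level of its group, at 4904 CPM against 5303 to 5837 CPM. In the litter with 2 Kat6a-/- and 1 Kat6a+/+ libraries 44 of 46 members were below 0 (median log2 ratio -0.27), and in the litter with 1 of each 37 were (median -0.14). These counts were not made over all genes. Pold1, Chaf1a and E2f1 were called in all 16 alternatives.

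Pold1 had the largest fall in proliferating null cells. Its levels were 190, 163, 172 and 191 CPM in Kat6a+/+ against 144, 128, 130 and 76.4 CPM in Kat6a-/-, with no overlap (log2 fold-change -0.56, SE 0.13, FDR = 0.00827, and -0.39 with FDR = 0.00815 without Kat6a-/- replicate 4). Orc1 had 21.5, 21.2, 21.5 and 17.5 CPM against 17.5, 16.8, 13.6 and 8.38 CPM. The lowest wild type and the highest null library of Orc1 met, and its log2 fold-change of -0.55 (SE 0.17, FDR = 0.0234) became -0.35 (FDR = 0.0846) without replicate 4 and -0.54 (FDR = 0.0591) without Kat6a+/+ replicate 1. Uhrf1 had 396, 351, 397 and 370 CPM against 288, 270, 306 and 153 CPM, with a log2 fold-change of -0.55 (SE 0.15, FDR = 0.0147) and of -0.37 (FDR = 0.0111) without replicate 4.

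Further members were lower in proliferating null cells by similar amounts. Mcm7 had 286, 249, 274 and 246 CPM in Kat6a+/+ against 205, 188, 211 and 107 CPM in Kat6a-/- (log2 fold-change -0.53, SE 0.15, FDR = 0.0193). Lig1 had 255, 223, 229 and 224 CPM against 198, 157, 193 and 100 CPM (log2 fold-change -0.48, SE 0.15, FDR = 0.0296). In Mcm7 and Lig1 every null library was below every wild type library, and both passed the threshold without Kat6a-/- replicate 4. Mcm7 was called in 14 of 16 alternatives, and its call was lost without Kat6a+/+ replicate 1 (FDR = 0.0531) and with the term for Y-linked reads (FDR = 0.0743). Lig1 was called in 9 of 16, and its call was lost without any 1 of the Kat6a+/+ libraries (FDR = 0.0548 to 0.0740), without Kat6a-/- replicate 2, with litter as a fixed term and with the term for Y-linked reads. Pcna had 231, 200, 224 and 219 CPM against 205, 173, 191 and 120 CPM, overlapping in 1 library, with a log2 fold-change of -0.32 (SE 0.11, FDR = 0.0426) that became -0.18 (FDR = 0.104) without replicate 4. The call of Pcna was made in 4 of 16 alternatives, and it was lost without any 1 of the Kat6a+/+ libraries, without Kat6a-/- replicate 2, and by edgeR and DESeq2. E2f1 had 66.9, 63.7, 55.9 and 57.6 CPM against 50.5, 41.4, 42.3 and 35.6 CPM (log2 fold-change -0.47, SE 0.10, FDR = 0.00421), and Chaf1a went from 111 ± 7.91 to 78.2 ± 17.1 CPM (log2 fold-change -0.49, SE 0.12, FDR = 0.00712). For Rrm2 the levels were 425, 378, 431 and 347 CPM against 344, 287, 369 and 226 CPM, overlapping, with a log2 fold-change of -0.34 that was not called (FDR = 0.0749).

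At the other end, 3 members of the clamp loaders and RPA had values at or near 0 or above. Rfc3 (chr5:151566221-151574707, minus strand) had 49.9, 46.9, 55.7 and 50.1 CPM in Kat6a+/+ against 64.0, 53.9, 61.2 and 40.3 CPM in Kat6a-/-. Apart from replicate 4, its null libraries were at or above the middle of the wild type range, and its log2 fold-change of 0.11 (SE 0.11, FDR = 0.467) became 0.27 (FDR = 0.0388) without that library. Dscc1 had 12.2, 10.5, 12.2 and 11.04 CPM against 14.7, 11.6, 12.05 and 8.38 CPM (log2 fold-change 0.01, 95% interval -0.25 to 0.27), and Rpa1 had 182, 165, 198 and 178 CPM against 202, 177, 188 and 144 CPM (log2 fold-change -0.004, 95% interval -0.17 to 0.17). The ranges of Dscc1 and Rpa1 overlapped, and the sign of their small log2 fold-changes turned in some alternatives. Overlap was also seen in 3 members that lead their role groups per kilobase and were not called. Ccne1 had 35.6, 34.0, 45.9 and 39.2 CPM against 42.8, 34.1, 38.3 and 27.6 CPM (log2 fold-change -0.11, FDR = 0.584). Gins2 had 41.4, 35.5, 38.4 and 42.2 CPM against 41.0, 32.3, 39.3 and 24.3 CPM (log2 fold-change -0.19, FDR = 0.263). Orc6 had 71.8, 61.4, 64.3 and 61.3 CPM against 57.5, 59.8, 63.6 and 43.4 CPM (log2 fold-change -0.17, FDR = 0.193).

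**Figure D4:**
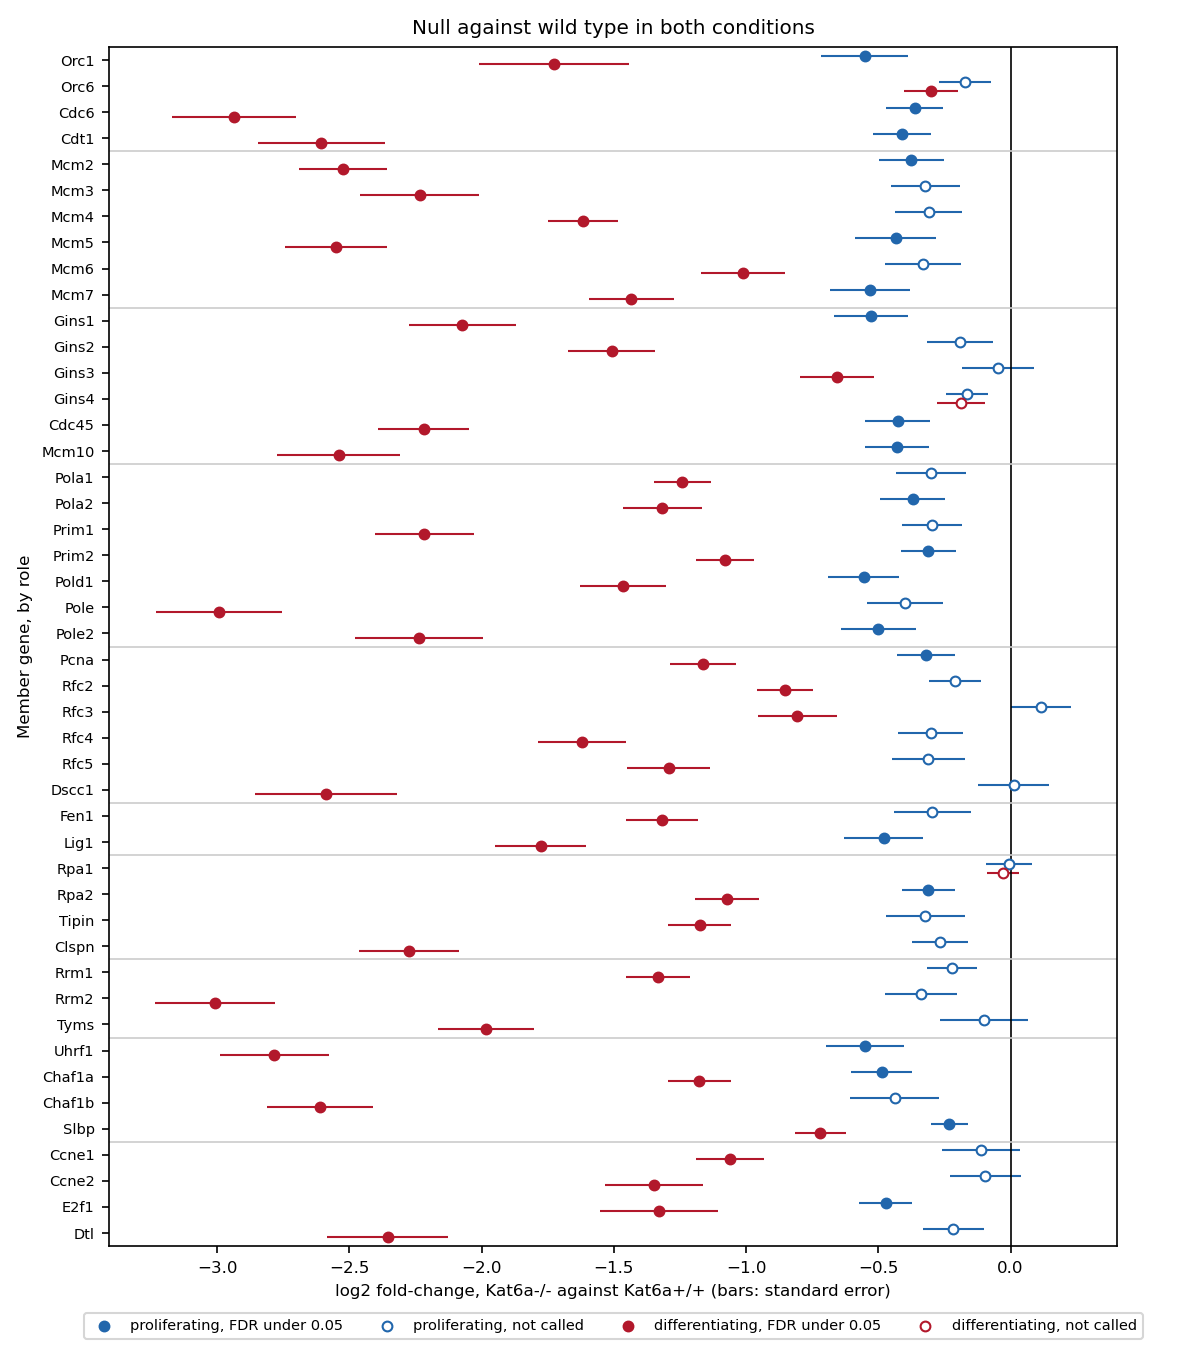
log2 fold-change of each member, Kat6a-/- against Kat6a+/+, in proliferating (blue) and differentiating (red) NSPCs, with bars of 1 standard error and filled points where FDR was under 0.05. The red points span -3.01 (Rrm2) to -0.03 (Rpa1) and the blue points -0.56 (Pold1) to 0.11 (Rfc3).

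The effect of the null genotype differed between the conditions. The interaction term, the log2 fold-change of Kat6a-/- against Kat6a+/+ in differentiating cells minus that in proliferating cells, was called negative for 32 of 46 members, where 7.58% of the 13590 genes tested were called negative, and none was called positive. The median was -1.06 over the members and -0.001 over all genes. The largest interactions were those of Cdc6 (-2.68, SE 0.44, FDR = 0.000483), Rrm2 (-2.50, SE 0.36, FDR = 0.000209) and Dscc1 (-2.42, SE 0.41, FDR = 0.000623). In proliferating cells Cdc6 had 58.5, 56.3, 53.8 and 49.98 CPM in Kat6a+/+ against 46.1, 42.0, 48.0 and 30.02 CPM in Kat6a-/-, a log2 fold-change of -0.36 (SE 0.11, FDR = 0.0229) that was called in 12 of 16 alternatives. Cdc6 was thus called in both conditions and Dscc1 in differentiating cells, and both interactions passed the test.

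By role, the interaction was called for all 3 genes of nucleotide supply, 5 of 6 helicase activators, both genes of Okazaki fragment joining, 4 of 6 MCM genes, 5 of 7 polymerase and primase genes, 4 of 6 clamp genes, 3 of 4 chromatin replication genes, 3 of 4 genes of S phase entry, 2 of 4 licensing genes and 1 of 4 RPA and fork protection genes (Clspn, -2.14, SE 0.35). The members with values nearest 0 or above were Rpa1 (0.07, SE 0.13), Gins4 (0.02, SE 0.15) and Orc6 (-0.11, SE 0.16). In proliferating cells Gins4 had 34.8, 31.4, 35.2 and 32.9 CPM in Kat6a+/+ against 31.6, 30.9, 31.4 and 24.7 CPM in Kat6a-/- (log2 fold-change -0.17, SE 0.08, FDR = 0.133), beside -0.19 in differentiating cells. Without proliferating Kat6a-/- replicate 4 the interaction was called for 39 members (7.26% of all genes), and the count was 26 to 39 over all libraries left out in turn. With library totals 40 members and 2400 of all 13590 genes tested were called, and the median over all genes moved by -0.15. The share of calls that were negative went from 54.4% to 77.9%. With the litter labels of Kat6a+/+ replicate 2 taken as 1 litter, an alternative chosen after seeing the data, 32 members were called, beside 7.58% of all genes in the main fit. The fit holds embryos labelled in both conditions without a term for the embryo.

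In Kat6a+/- NSPCs no member was called against wild type. No gene was called by limma in either condition, so that 0% of all genes and 0 of 46 members were called lower. At an unadjusted p under 0.05 there were 0 members and 912 genes in proliferating and 2 members and 1926 genes in differentiating cells. DESeq2 called 28 and 8 genes, none of them members, and edgeR called 0. The median log2 fold-change of the members was -0.05 in proliferating and -0.22 in differentiating cells, and mean levels had a median of 94.3% and 93.9% of wild type. These medians depended on single libraries and on the fit. The proliferating one was -0.0036 without Kat6a+/- replicate 3 and -0.03 without Kat6a+/+ replicate 1. The differentiating one was -0.04 without Kat6a+/+ replicate 3, -0.08 without Kat6a+/- replicate 1 or 4, -0.10 without quality weights, -0.09 by edgeR and DESeq2 and 0.0061 with litter as a fixed term. The member nearest the threshold was Slbp in differentiating cells, with 40.5, 36.2, 42.7 and 37.4 CPM in Kat6a+/+ against 26.9, 34.4, 38.3 and 30.3 CPM in Kat6a+/-. The ranges of Slbp overlapped in 1 library, and its log2 fold-change of -0.42 (SE 0.10) had a p of 0.00136 and an FDR of 0.163 in limma, which was 0.0223 without Kat6a+/- replicate 3.

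The other heterozygous values named by rule had larger p-values. In differentiating cells Tipin had 31.9, 26.2, 37.6 and 26.8 CPM in Kat6a+/+ against 24.96, 32.4, 30.03 and 21.8 CPM in Kat6a+/- (log2 fold-change -0.31, SE 0.13, FDR = 0.298), and Mcm7 had 65.2, 88.5, 91.4 and 44.8 CPM in Kat6a+/- (-0.36, SE 0.17, FDR = 0.36). The groups of both genes overlapped. In proliferating cells the smallest p-values belonged to E2f1, Prim2 and Gins1, each with a log2 fold-change of -0.15. E2f1 had 58.3, 61.0, 50.8 and 47.5 CPM in Kat6a+/- (SE 0.09, FDR = 0.764), a range that met the wild type values given above. Prim2 had 52.4, 45.7, 55.0 and 58.1 CPM in Kat6a+/+ against 48.8, 46.7, 47.3 and 41.6 CPM in Kat6a+/- (SE 0.10, FDR = 0.776), and Gins1 had 31.7, 23.6, 28.3 and 32.9 CPM against 28.2, 27.6, 25.5 and 21.4 CPM (SE 0.12, FDR = 0.842).

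The null libraries were also compared with the heterozygous ones. In differentiating cells 42 members were called lower in Kat6a-/- than Kat6a+/-, where 18.5% of all genes were, with a median log2 fold-change of -1.34. The 4 members not called were Rpa1 (-0.03), Orc6 (-0.09), Gins4 (-0.13) and Gins3 (-0.40). Without Kat6a-/- replicate 3 the count was 18, where 1.76% of all genes were called lower, and without replicate 1 it was 27 (2.28%). In proliferating cells 6 members were called lower, where 6.3% of all genes were, and the median was -0.26. These were Cdt1 (-0.41), Pold1 (-0.44), Rfc4 (-0.38), Rrm2 (-0.41), Chaf1a (-0.37) and E2f1 (-0.33), and without Kat6a-/- replicate 4 none was called (2.06% of all genes lower). The count was also 0 without Kat6a+/- replicate 1 (2.66%) or 2 (3.95%), 1 without Kat6a-/- replicate 2 (5.12%), 3 without Kat6a+/- replicate 4 (7.69%), 10 without Kat6a+/- replicate 3 (5.03%) and 12 without Kat6a-/- replicate 3 (6.47%). The comparisons with Kat6a+/+ and with Kat6a+/- share the null libraries.

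Subunits of a complex, compared as CPM per kilobase of gene model, had less equal levels in differentiating null cells. In proliferating Kat6a+/+ libraries the 6 MCM mRNAs were within 1.40-fold of each other, from 66.5 (Mcm5) to 92.9 CPM per kilobase (Mcm3), and in differentiating Kat6a+/+ within 1.66-fold. In differentiating Kat6a-/- libraries the ratio of highest to lowest was 3.07, with Mcm7 at 10.95 ± 2.60 and Mcm5 at 3.57 ± 1.31 CPM per kilobase. For ribonucleotide reductase, Rrm2 was higher than Rrm1 in proliferating wild type cells (181 ± 18.3 against 119 ± 6.17 CPM per kilobase). The order was the other way in differentiating Kat6a-/- cells, at 6.22 ± 3.35 against 19.1 ± 1.63 CPM per kilobase, a ratio of 3.07. In differentiating Kat6a+/+ cells the subunits were level, at 42.8 ± 13.1 and 45.3 ± 8.31 CPM per kilobase, a difference within their spread.

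The GINS genes were unequal from the start, with Gins2 4.93 times Gins3 in proliferating wild type cells. In differentiating Kat6a-/- cells Gins4 at 16.1 ± 2.19 CPM per kilobase was 9.29 times Gins1 at 1.73 ± 0.617 CPM per kilobase. The small loader subunits went from a ratio of 1.75 in proliferating Kat6a+/+ to 2.98 in differentiating Kat6a+/+ and 5.16 in differentiating Kat6a-/- cells, with Rfc2 the highest in all of these groups. The CAF-1 genes Chaf1a and Chaf1b went from 1.13 to 1.61 and 3.89, and the genes of polymerase alpha and primase had ratios of 1.98, 2.23 and 2.47. These ratios are descriptions without a test.

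**Figure D5:**
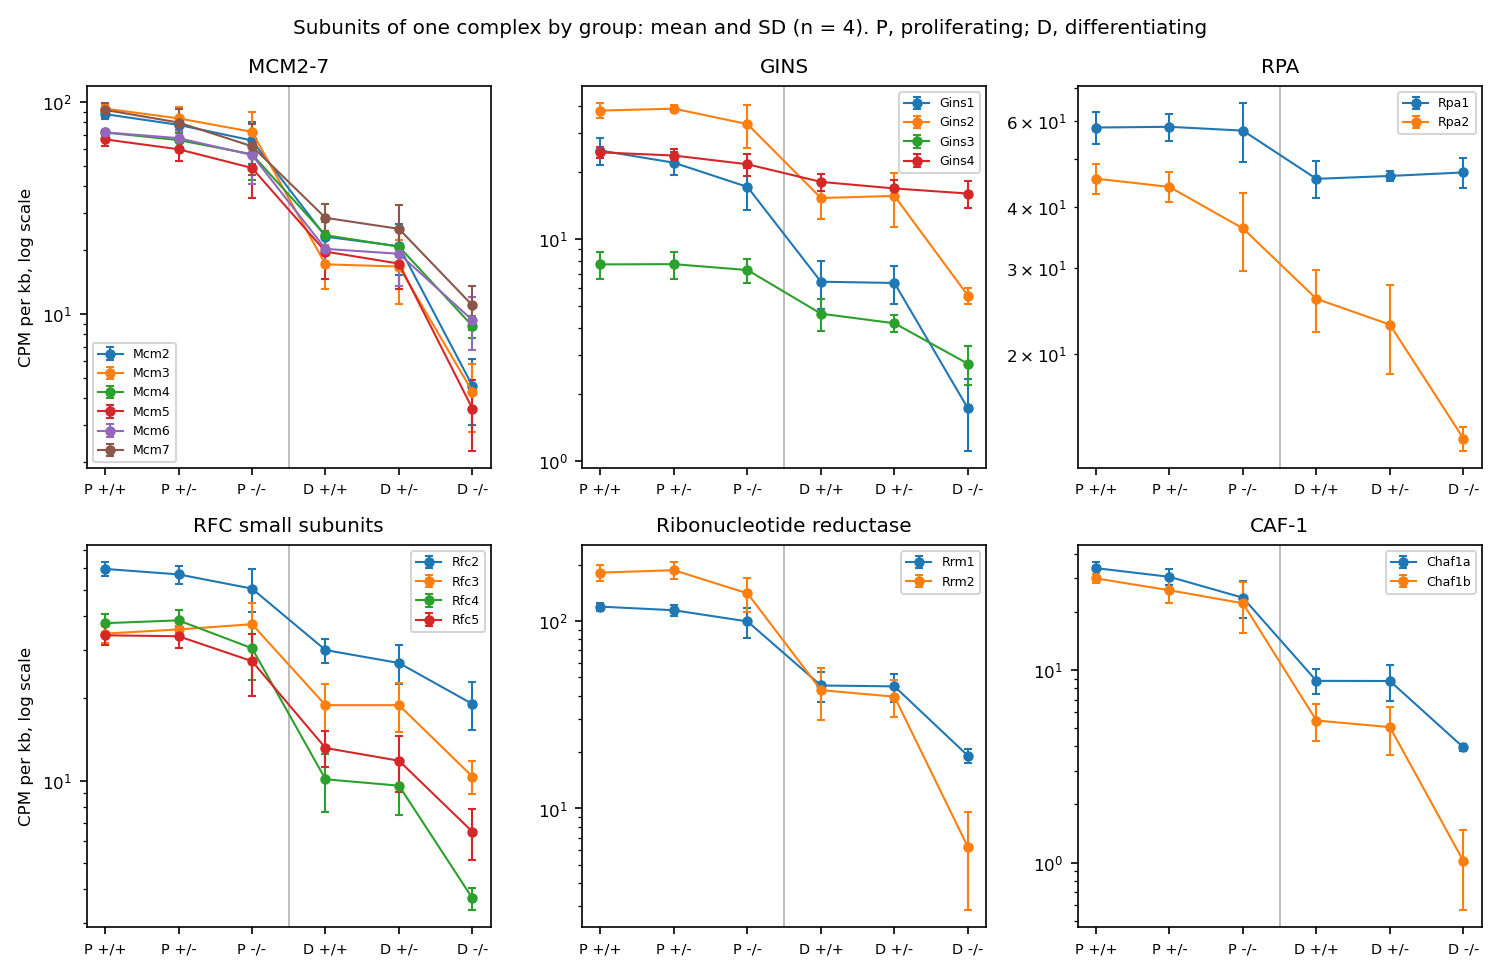
Mean CPM per kilobase (log axis) with SD (n = 4) of the subunit genes of 6 complexes in the 6 groups, proliferating on the left and differentiating on the right of each panel, with genotypes as +/+, +/- and -/-. The lines of all 6 panels (MCM2-7, GINS, RPA, small RFC subunits, ribonucleotide reductase and CAF-1) are farthest apart at the last group, differentiating Kat6a-/-.

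The lists by promoter letters are given without a test. Members with E2F letters in their promoters had a median log2 fold-change of -2.005 in differentiating null cells, with all 16 called lower, and the 20 members with a promoter but without these letters had a median of -1.32, with 19 called lower. Over all genes tested with a promoter in the table, 44.5% of those with E2F letters and 27.2% of those without were called lower. In proliferating cells 9 of 16 and 9 of 20 members were called, against 20.2% and 13.2% of all genes. Among the printed windows, E2F letters stand in genes with large (Mcm5) and small (Gins3, Rfc3) falls, and they are not in the windows of Rrm2, with the largest, and of Orc6, with one of the smallest.

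Other genes of replication and of the cycle were compared from separate lists. In differentiating Kat6a-/- against Kat6a+/+ cells, 27.7% of all genes tested were called lower. Of 53 further replication genes tested, 49 were called lower and 1 higher in that comparison, with a median of -0.95. The largest falls were in Esco2, which acetylates cohesin in S phase (-3.72, SE 0.28), and Pclaf, a PCNA-binding factor (-3.49, SE 0.27), and the gene called higher was Pold4, a small subunit of polymerase delta (1.02, SE 0.21). All 30 genes of G2 and mitosis were called lower, with a median of -2.89 and values from -3.50 (Aurkb, Mki67) to -1.13 (Anln), and their summed level was 129 to 521 CPM in Kat6a-/- and 1283 to 2210 CPM in Kat6a+/+ libraries. Of 12 E2F and RB family genes 10 were called lower, among them E2f8 (-3.23) and E2f2 (-3.09), and the gene of the retinoblastoma protein, Rb1, was called higher (0.29). In proliferating cells 21 of 53, 11 of 30 and 3 of 12 genes of these lists were called lower, where 13.8% of all genes were. Their medians were -0.26, -0.28 and -0.14, and Tfdp2, an E2F partner, was called higher (0.30). The interaction was called negative for 28, 29 and 5 genes of these lists, where 7.58% of all genes were. Chtf8, of the alternative clamp loader, was at 0 in all 24 libraries and was not tested.

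Some markers of cell types were also called in Kat6a-/- against Kat6a+/+ cells, and their part in the change of the members was not tested. For comparison, the whole proliferating set of 12276 genes had 1993 calls upward and 1693 downward. The differentiating set of 13339 genes had 3562 upward and 3696 downward. Whether any marker list differed from these backgrounds was not tested. In proliferating Kat6a-/- cells 5 of 7 astrocyte markers tested were called higher, led by Gfap (log2 fold-change 3.51), and their summed level was 2395 to 3866 CPM against 1425 to 1642 CPM in Kat6a+/+. Of 7 neuron markers tested in proliferating cells, Rbfox3 (-1.78), Tubb3 (-1.19) and Elavl4 (-0.62) were called lower and Map2 (0.25) higher, with sums of 1176 to 1314 CPM in Kat6a-/- against 954 to 1238 CPM in Kat6a+/+. The summed level of the 8 neural stem and progenitor markers was 5236 to 7223 CPM against 7187 to 8071 CPM. In differentiating cells the same neural stem list was 8384 to 12212 CPM in Kat6a-/- and 6363 to 7994 CPM in Kat6a+/+, with 3 of 8 called higher and 3 lower. The called genes included Nes (1.04) and Vim (0.61) higher and Msi1 (-1.21) and Fabp7 (-0.90) lower, and the list had a median of -0.39. Vim and Nes had the highest levels of the list, up to 9302 and 2417 CPM in any library. Of 8 astrocyte markers tested in differentiating cells 1 was called higher and 3 lower, with sums of 2336 to 8656 CPM against 2828 to 3604 CPM, and of 7 oligodendrocyte lineage markers 1 was called higher and 5 lower. Kdr (-2.52) was the endothelial marker tested, and no microglial or erythroid marker passed the low-count filter. Of 8 neuron markers tested in differentiating cells 4 were called lower, among them Dcx (-4.51), Elavl4 (-3.98) and Tubb3 (-0.74). The 1 called higher was Stmn2 (2.44), a gene near the floor with no count in 13 libraries and at most 3.94 CPM in any. The sums of the list overlapped (466 to 777 against 533 to 710 CPM). Such a sum follows its highest genes, and Map2 reached 1101 CPM in any library against 97.5 CPM for Tubb3. Mesenchymal markers were summed at 125 to 859 CPM in Kat6a-/-, 117 to 1769 CPM in Kat6a+/- and 205 to 631 CPM in Kat6a+/+ differentiating libraries, and 3 of 5 tested were called higher in the null cells, with Col1a1 at 5.19 and Col1a2 at 3.02 on the log2 scale.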

How the data were processed

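RNA from 24 NSPC cultures was sequenced as stranded mRNA libraries. The authors aligned reads to mm39 with Rsubread and deposited raw counts per gene (featureCounts, RefSeq annotation), not normalized, 1 table per library. Per the labels' processing notes, reads were demultiplexed with bcl2fastq. Versions and the strand setting of the counting are not given in the sources used here.

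From the counts, protein-coding genes (21030 by RefSeq biotype, with 52 genes lacking a biotype) were kept without Y-linked genes and Xist, filtered on low counts (filterByExpr) and scaled by TMM (edgeR 4.0.16). Following the study's methods, proliferating libraries were fitted with limma-voom (limma 3.58.1, R 4.3.3) with litters treated as a random block (estimated correlation 0.287), and differentiating libraries with limma-trend on log2 CPM (prior count 2) and library quality weights. All 24 libraries were fitted together by limma-voom with the litter block for wild type cells between conditions and for the interaction. FDR is the Benjamini-Hochberg adjusted p of limma over all genes tested, with a threshold of 0.05, and it is given with the log2 fold-change and its standard error. Total counts of 7826660 to 40838203 per library set the precision. Replicates are cultures of single embryos, and the most alike replicate pair had a chi-square of 5.81 per degree of freedom, so no library was counted as a duplicate. The fits were tested on simulated counts with known changes in a small part of the genes. Those counts had the same dispersion for every gene, no litter correlation and no library of lower quality. The simulation therefore does not cover these features of the data.

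The members and gene lists were chosen with earlier results of these data known. Values of every library are given for the member with the highest CPM per kilobase of each role group, for the 3 lowest and 3 highest log2 fold-changes of Kat6a-/- against Kat6a+/+ in each condition and of the interaction, and for the 3 smallest p-values of Kat6a+/- against Kat6a+/+ in each condition. Of other lists, up to 4 of the called genes with the lowest and highest values are named. Alternatives were edgeR, DESeq2 1.42.0, library totals, no low-count filter, litter as a fixed term, no litter term, a replicate block, a term for Y-linked reads, no quality weights, limma-voom with the litter block for differentiating libraries, each library left out, promoter windows before the start only and, chosen after seeing the data, 2 wild type litter labels taken as 1 litter.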

Additional observations from a re-analysis of the deposited data

Results flagged for a closer look

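Of 282 group values, 276 of single members and 6 of their summed level, 16 values of single members had 1 library far from the other 3 of its group by Dixon's criterion, which chance alone marks in about 1 of 20 groups. In proliferating Kat6a-/- replicate 4, these were Gins4 (24.7 CPM, others 30.9 to 31.6), Prim2 (31.1 CPM, others 44.5 to 46.3), Pole (68.1 CPM, others 119 to 129), Rfc5 (29.4 CPM, others 51.9 to 54.6), Rpa2 (47.0 CPM, others 67.4 to 71.6) and Slbp (62.4 CPM, others 77.7 to 79.6). The median log2 ratio of the members to the wild type mean was -0.88 in that library. In the other proliferating groups these were Orc1 in Kat6a+/+ replicate 4 (17.5 CPM, others 21.2 to 21.5), Mcm2 in Kat6a+/+ replicate 1 (318 CPM, others 286 to 289) and Mcm6 in Kat6a+/- replicate 4 (257 CPM, others 310.0 to 316).

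In differentiating cells, Gins3 (13.9 CPM, others 9.98 to 10.6) and Rfc3 (35.9 CPM, others 23.98 to 26.0) were high in Kat6a+/+ replicate 3, and Chaf1a was low in Kat6a+/+ replicate 4 (22.6 CPM, others 30.5 to 31.9). Prim2 was low in Kat6a+/- replicate 4 (17.3 CPM, others 21.3 to 21.8). Orc6 was high in Kat6a-/- replicate 3 (25.9 CPM, others 22.4 to 22.7), and Mcm2 (23.3 CPM, others 12.1 to 13.7) and Pcna (56.2 CPM, others 45.5 to 46.3) in Kat6a-/- replicate 4.

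The effect of the null genotype differed between conditions by the interaction term for 32 members, with the most negative values in Cdc6 (-2.68), Rrm2 (-2.50) and Dscc1 (-2.42).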

How the results depend on the processing

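Of the 46 members, 34 were called in differentiating Kat6a-/- against Kat6a+/+ cells under all 17 alternatives, 25 in the interaction under all 25, and 3 in proliferating cells under all 16. The same count was not made over all genes. In proliferating Kat6a-/- against Kat6a+/+ cells the count of 20 members became 7 with litter as a fixed term (7.13% of all genes lower) and 4 with a term for Y-linked reads (9.26%), and 8 to 30 with single libraries left out. For proliferating Kat6a-/- against Kat6a+/- cells the count of 6 became 0 by edgeR (3.35% of all genes lower), 3 by DESeq2 (5.91%) and 10 with library totals (7.34%). The same count was 2 without the low-count filter (3.63%), 2 with the term for Y-linked reads (5.63%) and 0 without a litter term (2.92%). With single libraries left out it was 0 to 12. For differentiating Kat6a-/- against Kat6a+/- cells the count of 42 (18.5% of all genes lower) became 24 with litter as a fixed term (2.19%) and 18 to 43 with single libraries left out. For differentiating Kat6a+/- against Kat6a+/+ cells it was 0 to 1, with 1.21% of all genes lower where it was 1. The cause of these shifts was not tested. Over all genes, 7258 were called in differentiating Kat6a-/- against Kat6a+/+ cells, but 3244 by edgeR, 4076 by DESeq2, 1785 with litter fixed, 3950 with the term for Y-linked reads, 3097 without quality weights and 2806 by limma-voom with the litter block. Against Kat6a+/- 5007 genes were called, but 1656 by edgeR, 2621 by DESeq2, 3031 without the filter, 386 with litter fixed, 1605 with the term for Y-linked reads, 1616 without quality weights and 1406 by limma-voom. In proliferating cells 3686 genes became 1936 with litter fixed, and against Kat6a+/- 1813 became 951 by edgeR and 960 without a litter term. Signs turned for uncalled values near 0. In proliferating Kat6a-/- against Kat6a+/+ cells Rpa1 (-0.004) was 0.013 by edgeR and DESeq2, 0.040 with the term for Y-linked reads, 0.0041 without a litter term and -0.061 to 0.089 with libraries left out. Dscc1 (0.01) was -0.000858 without the filter, -0.017 with the term for Y-linked reads and -0.10 to 0.17 with libraries left out, and Ccne1 (-0.11) was -0.21 to 0.047. In differentiating cells Rpa1 (-0.03) was 0.044 by edgeR, 0.056 by DESeq2, 0.061 with litter fixed, 0.046 without quality weights, 0.051 by limma-voom and -0.076 to 0.11 with libraries left out. In the interaction Gins4 (0.02) was -0.00411 by DESeq2, -0.14 with library totals and -0.12 to 0.070 with libraries left out, and Rpa1 (0.07) was -0.073 with library totals and -0.029 to 0.14. Groups share replicate numbers, and same-numbered libraries had deviations that correlated from -0.43 to 0.54 in proliferating and -0.48 to 0.16 in differentiating cells. Of these 24 pairs 5 share a litter by their labels (-0.43 to 0.54), and the number as such marks no litter. With the replicate block 23, 0 and 7 members were called in the 3 proliferating comparisons, where 13.0%, 0% and 5.25% of all genes were called lower. In the differentiating ones 45, 0 and 43 were called, where 27.5%, 0% and 15.3% of all genes were. In wild type cells between conditions 46 were called and in the interaction 36, beside 36.2% and 7.58% of all genes in the main fits. Genes at a few CPM, such as Dscc1 and Orc1 in differentiating null cells, are limited by depth.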
